A study of Mus musculus with 59 samples.

Results

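Glutamatergic neuron genes were followed through the transcriptomes of 59 single mouse cells. The set holds 8 of the 20689 genes measured, taken by symbol: the vesicular glutamate transporter genes Slc17a7, Slc17a6 and Slc17a8, the transcription factor genes Neurod2, Neurod6 and Tbr1, and the synaptic vesicle genes Sv2b and Slc30a3. All cells belong to 1 group, which the labels call chemical-induced neurons from a study of chemical reprogramming of astrocytes in the living mouse brain, with an age label of 12 weeks. No strain, animal, brain region, chemical or control cell is given in the labels used here, so the 59 cells count as 1 sample and no comparison between conditions was possible. Per the labels' protocol, a patch pipette took up the soma of each cell in vivo. Cells are numbered here as in the labels.

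A glutamatergic neuron loads glutamate into synaptic vesicles with a vesicular transporter. Slc17a7 (VGLUT1) is the usual form in cortex and hippocampus, Slc17a6 (VGLUT2) in thalamus and other subcortical regions, and Slc17a8 (VGLUT3) in scattered neurons that often release another transmitter. Neurod2, Neurod6 and Tbr1 are transcription factors of cortical excitatory neurons, active as these neurons differentiate and later. Sv2b encodes a synaptic vesicle glycoprotein found mainly at excitatory terminals, and Slc30a3 (ZnT3) fills the vesicles of some of them with zinc. GABA neurons are marked instead by Gad1 and Gad2, which encode the enzymes that make GABA from glutamate.

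The stretches of 250 bases that lead up to the RefSeq starts of Slc17a7, Neurod2 and Neurod6 are shown as examples of the regulatory sequence of the most widely detected of the transporters and of the bHLH factors. Sequences are from RefSeq on GRCm38.p6, written 5′ to 3′ in the direction of transcription, with capitals at the E-box word CANNTG, which bHLH factors such as the Neurod proteins bind, and at AGGTGT or its reverse ACACCT, the core of the T-box word that Tbr1 binds.
Slc17a7, chr7:45163671-45163920, + strand: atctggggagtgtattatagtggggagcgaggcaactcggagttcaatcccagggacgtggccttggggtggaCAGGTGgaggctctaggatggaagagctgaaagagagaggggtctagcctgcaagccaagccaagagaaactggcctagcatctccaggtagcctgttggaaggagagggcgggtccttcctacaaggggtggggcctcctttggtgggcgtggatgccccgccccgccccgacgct
Neurod2, chr11:98329646-98329895, - strand: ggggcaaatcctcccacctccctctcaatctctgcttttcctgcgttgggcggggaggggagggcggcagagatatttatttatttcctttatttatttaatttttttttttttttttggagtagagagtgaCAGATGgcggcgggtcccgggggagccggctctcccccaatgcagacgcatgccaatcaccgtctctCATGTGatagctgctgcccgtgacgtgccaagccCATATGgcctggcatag
Neurod6, chr6:55681264-55681513, - strand: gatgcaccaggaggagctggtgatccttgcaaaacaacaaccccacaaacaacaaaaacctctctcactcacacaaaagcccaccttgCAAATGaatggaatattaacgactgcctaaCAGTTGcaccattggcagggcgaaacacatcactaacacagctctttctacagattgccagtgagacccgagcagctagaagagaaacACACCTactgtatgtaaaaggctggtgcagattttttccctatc
The Slc17a7 stretch holds 1 E-box word, CAGGTG, 177 bases before the start. The Neurod2 stretch holds 3, of which CAGATG at 118 bases before the start is the word preferred by Neurod factors. Neurod6 has 2 E-box words and 1 ACACCT, at 44 bases before its start. All 8 members were matched, with 14 stretches between them. CANNTG, searched on both strands, was in 12 of the 14 and in 66.2% of all 32851 stretches of the same length. CAGATG, which is a form of CANNTG, was in 3 of the 14 against 14.4% of all, and AGGTGT, which can overlap CAGGTG, in 5 of the 14 against 11.8%. These matches describe the letters only and were not tied to any measurement here.

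Levels are FPKM as deposited, which are fragments divided by exon length and by the cell's fragment total, and detection means a level of at least 1 FPKM. The median cell had 912977 fragments, estimated from the spacing of low values (29044 to 2950443), and 3984 genes detected (475 to 10310). Intervals beside percentages are exact 95% binomial intervals (Clopper-Pearson) and reflect counting error only. The median gene of the table was detected in 7 cells and the median glutamatergic gene in 13.5, while 23.6% of all genes were detected in at least 20 cells, the count reached by Slc17a7. The counts of Slc17a6 and Slc17a8, 11 and 2 cells, were reached or passed by 41.2% and 76.7% of all genes.

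The labelled identity was checked against marker genes. Each of 13 pan-neuronal genes reached detection in 50% of cells or more, but so did 8 of 10 oligodendrocyte genes, 6 of 10 microglia genes and 4 of 12 astrocyte genes. In the oligodendrocyte list Mbp was found in 55 cells and Opalin and Ugt8a in 29 each. In the others, the microglia genes ran from C1qb in 42 to Tmem119 in 14, and the astrocyte genes from Aldoc in 43 to Aldh1l1 in 10. A glutamatergic transcript measured in a cell therefore stands beside transcripts that mark other cell types, and which cell each came from cannot be told apart.

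Among the transporters, Slc17a7 was the most widely detected. Slc17a7 (ENSMUSG00000070570.5, chromosome 7, 45163949 to 45176142, protein coding, GRCm38) ran from 0 to 147 FPKM over the 59 cells with a median of 0, and was detected in 20 cells (33.9%, interval 22.1 to 47.4%). Cell 32 held the highest value, followed by cell 14 at 29.2 FPKM and cell 54 at 27.8 FPKM, so that 1 cell carried 44.5% of all Slc17a7 signal. In the 20 cells the median was 7.35 FPKM, resting on a median of 15 recovered fragments and never on fewer than 3.

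Slc17a6 was rarer and lower. It (ENSMUSG00000030500.6, chromosome 7, 51622006 to 51671119) ran from 0 to 28.8 FPKM with a median of 0, and was detected in 11 cells (18.6%, interval 9.69 to 30.9%). Cells 17, 33 and 2 were the highest, at 28.8, 26.1 and 19.9 FPKM. Slc17a8 (ENSMUSG00000019935.16, chromosome 10, 89574020 to 89621253) reached 5.90 FPKM in cell 3 and 2.39 FPKM in cell 9 and was at 0 elsewhere, and both cells also had Slc17a7 and Slc17a6.

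Slc17a7 and Slc17a6 overlapped in part. Slc17a7 without Slc17a6 was found in 15 cells and Slc17a6 without Slc17a7 in 6. Both were found in 5, which is 25.0% of the Slc17a7 cells and 45.5% of the Slc17a6 cells, and their FPKM had a Spearman correlation of 0.10 over the 59 cells. Of the 9 members of the SLC17 family looked for, 6 were measured. The lowest was Slc17a3, a kidney and liver phosphate and urate carrier, in 1 cell.

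**Figure D1:**
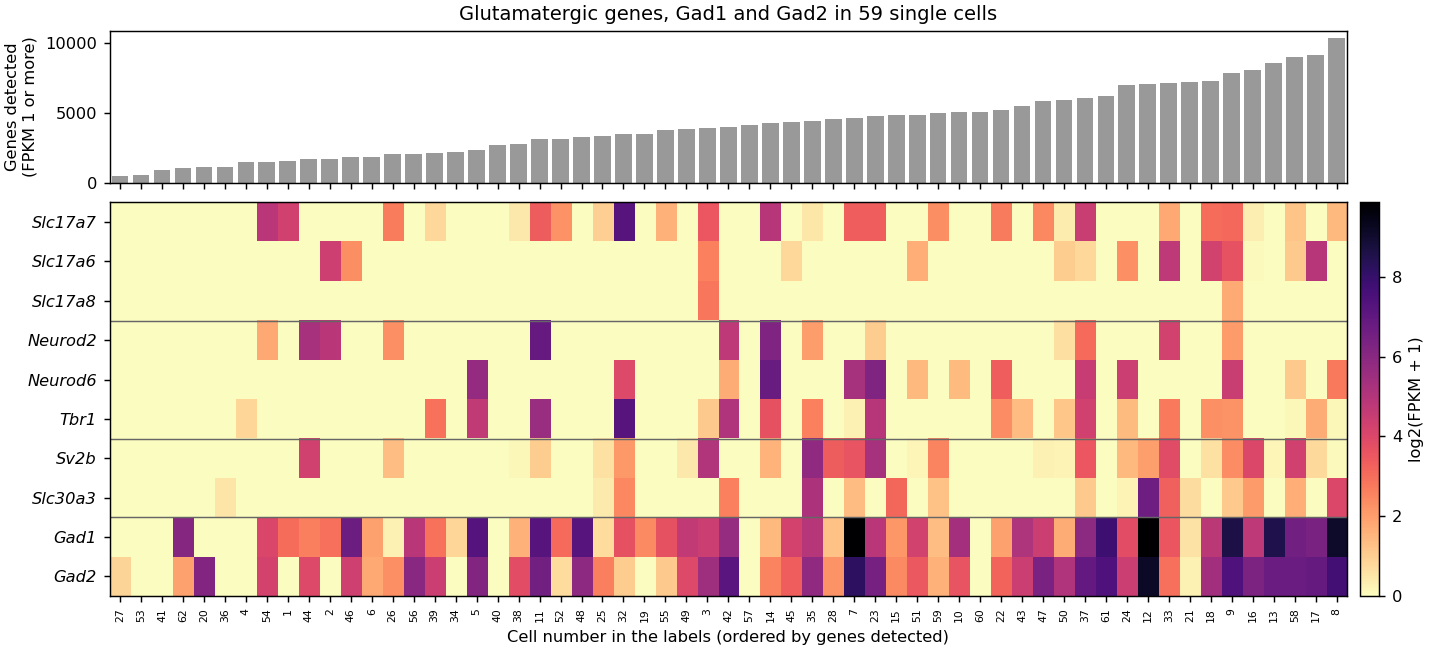
Each column is 1 of the 59 cells, ordered by genes detected (bars, upper panel), and each row of the lower panel is a gene, coloured by log2(FPKM + 1). Lines divide transporters, transcription factors, vesicle genes and the GABA synthesis genes. Each glutamatergic gene is above 0 in a minority of cells, and none reaches 1 FPKM in the cells with the fewest genes, up to 1479. Cell 9 has all 8 members, and Gad1 and Gad2 reach 1 FPKM in 46 and 45 cells.

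The transcription factor genes were each detected in a minority of cells, and in some of them at levels above those of the transporters. Tbr1 (ENSMUSG00000035033.15, chromosome 2, 61802930 to 61814114) ran from 0 to 150 FPKM with a median of 0 and was detected in 18 cells (30.5%, interval 19.2 to 43.9%). Its highest value was again in cell 32, ahead of cell 11 at 47.7 FPKM and cell 42 at 32.2 FPKM. Neurod6 (ENSMUSG00000037984.9, chromosome 6, 55677822 to 55681263) ran from 0 to 106 FPKM with a median of 0, highest in cell 14 and next in cell 23 at 73.9 FPKM, and 14 cells had it (23.7%, interval 13.6 to 36.6%). Neurod2 (ENSMUSG00000038255.6, chromosome 11, 98325415 to 98329648) ran from 0 to 114 FPKM with a median of 0, highest in cell 11 and next in cell 14 at 74.0 FPKM, and 12 cells had it (20.3%, interval 11.0 to 32.8%). Detection rested on 1 or 2 recovered fragments in 2 of the Tbr1 cells and in 1 each of the Neurod6 and Neurod2 cells.

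The factors overlapped in part. At least 1 was detected in 27 cells (45.8%, interval 32.7 to 59.2%), of which 15 had exactly 1, 7 had 2 and 5 had all 3. Tbr1 and Neurod6 were the closest pair of members, with a Spearman correlation of 0.60 over 59 cells and 9 cells in common, which is 50.0% of the Tbr1 cells and 64.3% of the Neurod6 cells. Tbr1 and Neurod2 shared 8 cells with a correlation of 0.43, and Neurod6 and Neurod2 shared 5 with a correlation of 0.22. The order of these pairs depended on the cells used. In the 39 cells with at least 500000 fragments, the correlation of Tbr1 was 0.72 with Neurod2 and 0.60 with Neurod6. These correlations include many cells in which both genes are at 0, and the cells differ in depth.

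The vesicle genes were often found together. Sv2b (ENSMUSG00000053025.13, chromosome 7, 75114894 to 75309262) ran from 0 to 56.2 FPKM with a median of 0 and was detected in 18 cells, and in 10 further cells it was above 0 but under 1 FPKM. Slc30a3 (ENSMUSG00000029151.14, chromosome 5, 31086106 to 31108237) was found in 13 cells and had a median of 0. Cell 12 was its highest at 100.3 FPKM and held 53.4% of its signal, followed by cell 35 at 34.0 FPKM. Both were detected in 10 cells, 55.6% of the Sv2b cells and 76.9% of the Slc30a3 cells. In cell 12 neither a transporter nor a factor gene was detected, and Gad1 stood at 929 FPKM, its highest value in any cell.

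**Figure D2:**
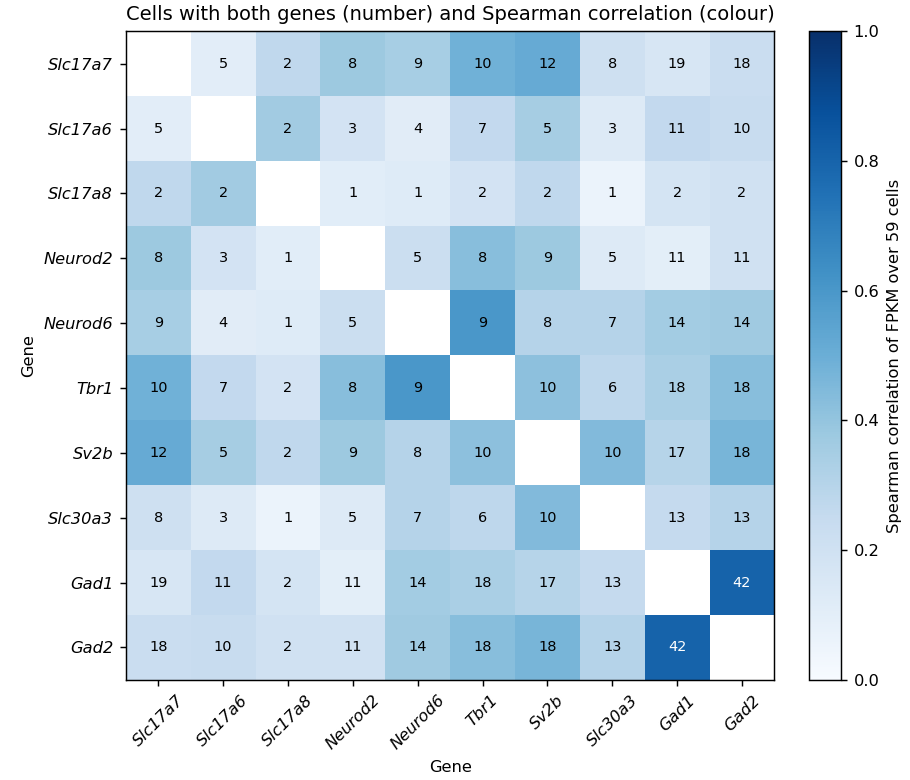
Rows and columns are the 8 glutamatergic genes with Gad1 and Gad2. Each number is the count of cells with both genes at 1 FPKM or more, and the colour is the Spearman correlation of FPKM over 59 cells. Tbr1 with Neurod6 (0.60) is the darkest pair of members, and Gad1 with Gad2 (0.80, 42 cells) the darkest of all.

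Transporter and transcription factor genes often occurred in the same cells. Of the 59 cells, 20 had both (33.9%, interval 22.1 to 47.4%), 6 a transporter gene only, 7 a factor gene only and 26 neither. Among the 27 cells with a factor gene, 20 had a transporter gene (74.1%, interval 53.7 to 88.9%), against 6 of the 32 cells without one (18.8%, interval 7.21 to 36.4%). Read the other way, 20 of the 26 transporter cells had a factor gene (76.9%, interval 56.4 to 91.0%). The cells are of 1 sample, so the difference was not tested.

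The pattern was present in the deeper cells. Among the 39 cells with at least 500000 fragments, a transporter gene was detected in 15 of 17 cells with a factor gene (88.2%, interval 63.6 to 98.5%) and in 4 of 22 without (18.2%, interval 5.19 to 40.3%). In the 20 shallower cells the counts were 5 of 10 and 2 of 10, with wide and overlapping intervals. With detection set at 10 recovered fragments, both kinds were found in 12 cells, and the transporter shares were 12 of 17 cells with a factor gene (70.6%) and 9 of 42 without (21.4%). At an FPKM of 5, both kinds were found in 16.9% of the 59 cells.

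**Figure D3:**
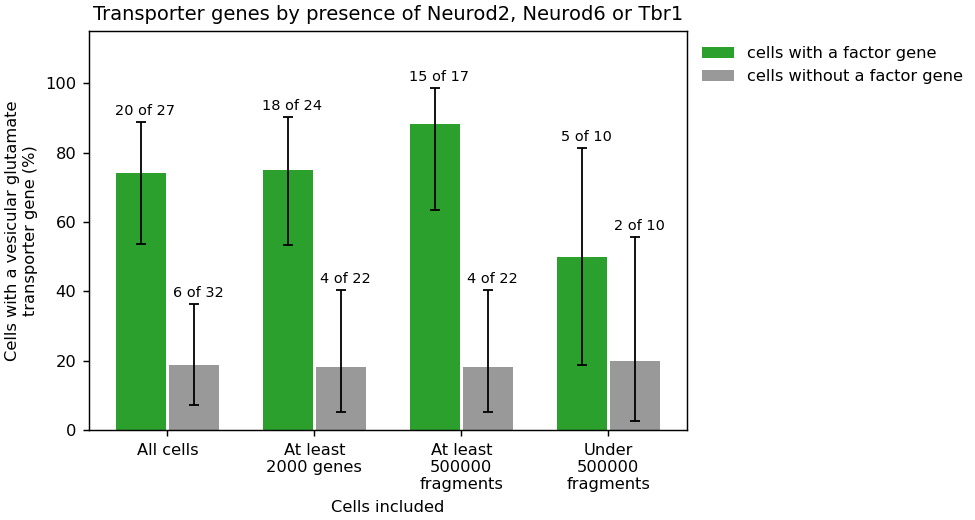
Bars give the percentage of cells with Slc17a7, Slc17a6 or Slc17a8 at 1 FPKM or more, in cells with (green) and without (grey) Neurod2, Neurod6 or Tbr1, for all cells and for cells by genes detected or depth. Lines are exact 95% intervals and counts are printed above them. The green bar stands at 74.1% against 18.8% in all cells and at 88.2% against 18.2% in cells of at least 500000 fragments, and the intervals overlap in the shallower cells.

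Vesicle genes went with the other kinds. A vesicle gene was detected in 21 cells, in 13 of the 20 cells with both a transporter and a factor gene (65.0%, interval 40.8 to 84.6%) and in 4 of the 26 cells with neither (15.4%, interval 4.36 to 34.9%). Slc17a7 and Sv2b shared 12 cells, which is 60.0% of the Slc17a7 cells and 66.7% of the Sv2b cells, with a Spearman correlation of 0.51. Slc17a7 and Tbr1 shared 10 cells with a correlation of 0.48. Slc17a6 shared 7 of its 11 cells with Tbr1, but its correlation with Tbr1 was 0.26 and that with Sv2b 0.35.

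The number of members per cell was uneven. No member was detected in 22 cells, 1 in 10, 2 in 9, and 5 or more in 8, with all 8 in cell 9. The number of members had a Spearman correlation of 0.10 with depth and 0.44 with genes detected over the 59 cells. It was 0.69 with the mean log2(FPKM + 1) of the neuronal list, 0.54 with the astrocyte list, 0.20 with the microglia list and 0.01 with the oligodendrocyte list. These points share the libraries and their depth, and the part of other cell types in the counts was not tested.

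Marker lists of the cells with both kinds spanned wide ranges. At least 50% of the neuronal list was detected in all 20 of them and in 12 of the 26 cells with neither kind, and at least 50% of the astrocyte list in 12 of 20 and 3 of 26. For the oligodendrocyte list the counts were 18 of 20 and 19 of 26, and for the microglia list 13 of 20 and 11 of 26. The neuronal list mean on the log2 scale ran from 2.58 to 6.45 in the cells with both kinds, with a median of 5.82. In the cells with neither it ran from 0 to 7.00, with a median of 2.13, so the ranges overlapped while the medians lay apart. The astrocyte medians were 2.38 and 0.77, the microglia medians 4.03 and 1.52, and the oligodendrocyte medians 6.37 and 6.27. Genes detected ran from 1494 to 10310 (median 5049.5) and from 475 to 8552 (median 3286.5) in the same cells. Median depth was 1041542 and 1128106 fragments. The part of these differences in the joint counts was not tested.

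Gad1 and Gad2 were detected in more cells and at higher levels than any glutamatergic gene. Gad1 (chromosome 2, 70553072 to 70602014) ran from 0 to 929 FPKM with a median of 11.7 FPKM, and Gad2 (chromosome 2, 22622205 to 22693874) from 0 to 573 FPKM with a median of 13.0 FPKM. Every one of the 37 cells with a glutamatergic gene had Gad1 or Gad2. The 10 cells without either had none of the 8 members (0 of 10, exact interval reaching 30.8%), with 475 to 7219 genes detected and a neuronal list mean of 0 to 2.19 on the log2 scale.

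Ordered by mean FPKM over cells, the GABA genes led. The means were 79.8 ± 190 FPKM for Gad1 and 50.6 ± 91.7 FPKM for Gad2 (SD, n = 59 cells). They were followed by Neurod6 (6.27 ± 18.7 FPKM), Tbr1 (5.95 ± 21.0 FPKM), Slc17a7 (5.60 ± 19.8 FPKM) and Neurod2 (5.39 ± 18.5 FPKM). Sv2b (4.19 ± 10.3 FPKM), Slc30a3 (3.18 ± 13.8 FPKM), Slc17a6 (2.09 ± 6.12 FPKM) and Slc17a8 (0.14 ± 0.824 FPKM) came last. No pair of neighbours in this order differed by more than the larger SD over cells. At the GENCODE exon length the mean of Slc17a7 was 3.05 FPKM and that of Sv2b 2.85 FPKM. Single cells weighed heavily: leaving out the highest cell of each gene gave 3.16 FPKM for Slc17a7 without cell 32, 3.48 FPKM for Tbr1 without cell 32, 3.53 FPKM for Neurod2 without cell 11, 1.51 FPKM for Slc30a3 without cell 12 and 0.041 FPKM for Slc17a8 without cell 3.

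**Figure D4:**
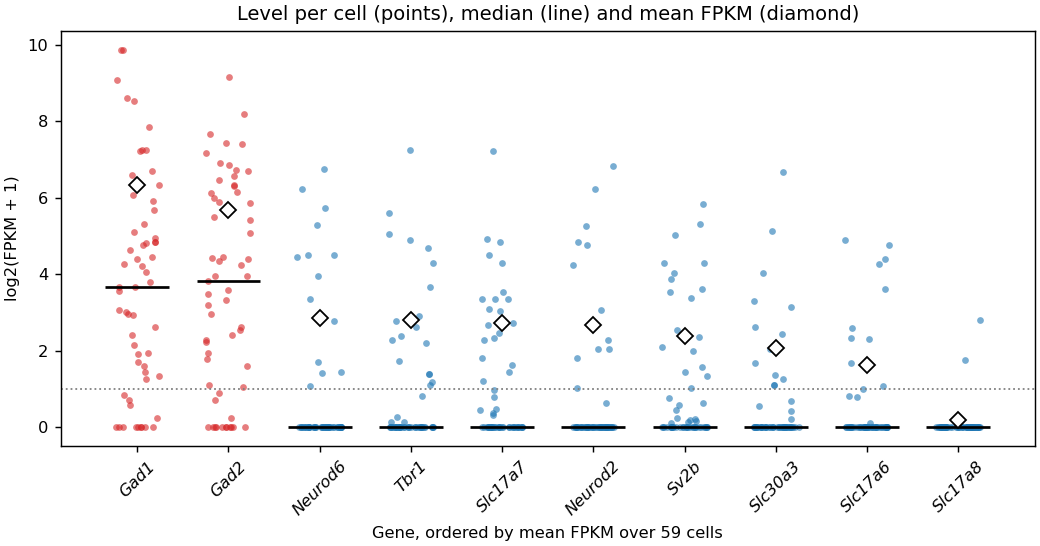
Points are the 59 cells, with log2(FPKM + 1) on the vertical axis and genes ordered by mean FPKM. The black line is the median, the diamond the mean FPKM put on the same scale, and the dotted line an FPKM of 1. The medians of Gad1 and Gad2 are 11.7 and 13.0 FPKM and those of all 8 glutamatergic genes are 0.

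Within cells, the GABA genes were usually higher. The difference log2(summed FPKM of the 3 transporter genes + 1) minus log2(summed FPKM of Gad1 and Gad2 + 1) was -2.93 at the median, with quartiles of -5.72 and -0.50 and an SD of 3.12 over the cells. It was below 0 in 45 cells, above 0 in 7 and 0 in the 7 cells where both sums were 0. In the 26 cells with a transporter gene the median was -2.45, with a range of -8.09 to 3.43. The transporter and Gad sums had a Spearman correlation of 0.23 over the 59 cells, and the transporter and factor sums 0.58.

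The cells in which the transporters exceeded the Gad genes were few and varied. They were cells 1, 2, 14, 26, 32, 33 and 59, and the summed transporter and Gad levels were 147 against 12.7 FPKM in cell 32, 29.2 against 6.53 in cell 14, 28.6 against 17.6 in cell 33 and 19.9 against 6.76 in cell 2. In cells 1, 26 and 59 they were 18.4 against 7.08, 5.33 against 4.06 and 3.99 against 3.53 FPKM. Cells 1 and 2 had only 92389 and 58068 estimated fragments, and their transporter values rest on 5 recovered fragments each, against 5 and 3 for Gad1. Cell 59 had 3 fragments of Slc17a7 against 3 each of Gad1 and Gad2. The deposited levels of Slc17a7 and Slc17a6 are 1.83 and 1.25 times those at the GENCODE exon length, while Gad1 and Gad2 stand at that length. With all levels at the GENCODE length the transporters were higher in 5 cells, and cells 26 and 59 turned to 2.90 against 4.06 and 2.17 against 3.53 FPKM. The factor sum exceeded the Gad sum in 7 cells too, 1 of them cell 4 with 0.767 FPKM against 0, and both sums did in cells 2, 14, 32 and 33.

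Cell 32 had the highest transporter sum and cell 14 the highest factor sum. In cell 32, Slc17a7 stood at 147 FPKM, Tbr1 at 150, Neurod6 at 14.4, Slc30a3 at 4.38 and Sv2b at 3.26, beside Gad1 at 11.6 and Gad2 at 1.06. In cell 14, Neurod6 stood at 106 FPKM, Neurod2 at 74.0, Slc17a7 at 29.2, Tbr1 at 11.7 and Sv2b at 1.98, beside Gad1 at 1.73 and Gad2 at 4.81. Slc17a6 and Slc17a8 were listed at 0 in both cells. All 13 neuronal genes were detected in each, together with 7 oligodendrocyte, 5 microglia and 6 astrocyte genes in cell 32 and 8, 4 and 5 in cell 14.

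Cell 9, with all 8 members, was of another kind. Its members ran from Slc30a3 at 1.16 FPKM to Neurod6 at 21.6 FPKM, and Gad1 and Gad2 stood at 387 and 172 FPKM. It was among the deeper cells, with 2130071 fragments and 7837 genes.

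**Figure D5:**
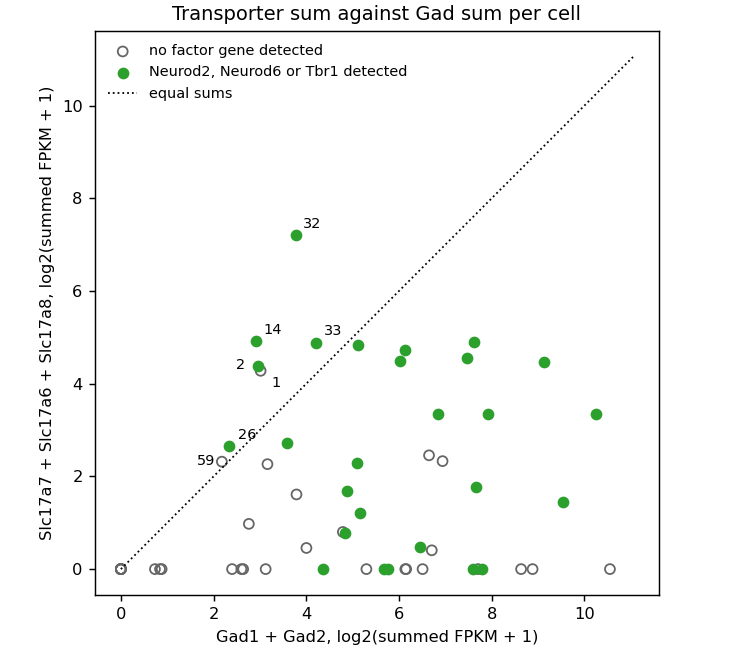
Each point is a cell, with the summed FPKM of Gad1 and Gad2 on the horizontal axis and of the 3 transporter genes on the vertical axis, both as log2(sum + 1), filled where a factor gene was detected. The 7 numbered cells lie above the dotted line of equal sums, led by cell 32, and 45 lie below it.

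Relatives of the members and other genes of excitatory neurons were found at very different breadth. Among SV2 genes, Sv2a, the form used by most synapses, was detected in 48 cells and Sv2c in 6. Among 8 measured zinc transporters Slc30a9 was detected in 36 cells and Slc30a7 and Slc30a10 in 4 and 5. Of the 5 measured proneural and Neurod genes, Neurod6 and Neurod2 led, while Neurod1 was detected in 5 cells. In a list of 15 cortical excitatory regulators the median gene was found in 11 cells, from Lmo4 in 38 and Mef2c in 37, which other neurons also express, to Emx1, Emx2 and Eomes in 3 each.

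Effector genes listed for excitatory neurons were broader, and the leading ones were not confined to cells with glutamatergic genes. Of 12 effector genes, 7 were detected in at least 50% of cells, led by the calmodulin-binding gene Nrgn in 50 and the complexin gene Cplx1 in 49. Lingo1 in 18 and the proline transporter gene Slc6a7 in 8 were at the low end. Nrgn and Cplx1 were each found in all 20 cells with both a transporter and a factor gene. They were also found in 19 and 17 of the 26 cells with neither. Of 11 genes of glutamate supply and uptake, 8 were detected in at least 50% of cells, led by Glul (glutamine synthetase, a glial enzyme) in 54 and Got1 in 47. Slc1a1, the neuronal glutamate uptake gene, was detected in 14 cells, 10 of them with both a transporter and a factor gene, and the glutaminase gene Gls2 in 7. Among 5 measured subcortical regulators, Rora was found in 26 cells and Tcf7l2 in 14, and Lhx9 and Barhl2 in 2 each. In the GABA list Slc32a1, the vesicular GABA transporter gene, was found in 22 cells and the GABA-degrading Abat in 32. Of 12 genes of striatal projection neurons, which are GABA neurons, the median gene was found in 27.5 cells. Ppp1r1b, the DARPP-32 gene, was found in 42, among them all 20 cells with both a transporter and a factor gene, Penk in 36, Drd1 in 11 and Drd2 in 5. For comparison, 5 measured genes of other organs had a median of 3 cells, from Apoa1 and Myl7 in 1 each to Acta1 in 8 and Myh6 in 5. In level they were not all low: the muscle actin gene Acta1 reached 164 FPKM in cell 56, above the highest value of every member, and its mean of 5.02 FPKM was above those of Sv2b, Slc30a3, Slc17a6 and Slc17a8.

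Genes with the most similar pattern over the 59 cells were sought among 8042 genes detected in at least 12 cells. Slc17a7 was most like Hpcal4 (Spearman correlation 0.63), the Rac regulator Chn1 (0.61) and Rasgrf2 (0.56), and Tbr1 most like the immediate early gene Egr4 (0.71), the pentraxin gene Nptx1 (0.68) and the G protein gene Gnaq (0.67). Neurod2 was most like the CaMKII inhibitor gene Camk2n1 (0.61), the peptide gene Cck (0.58) and Mef2c (0.58). For Neurod6 they were Tbr1 (0.60), Osbp (0.59) and Fam229b (0.57), and for Slc17a6 Fbll1 (0.63), Spata2l (0.60) and Fbxl20 (0.58). Sv2b was most like Dapk1 (0.72), 5730409E04Rik (0.71) and Ociad2 (0.69), and Slc30a3 most like Nrbf2 (0.68), the mitochondrial tRNA gene mt-Tf (0.62) and Upf2 (0.60). These ranks depended on the cells used: 6 of the 21 named pairs were among the leading 3 genes in the 39 cells with at least 500000 fragments, and 3 when the filter of 12 cells was also applied within those cells. Over the 59 cells, Neurod6 was the only one of the 7 members tried whose leading gene was another member. This too depended on the cells used: in the 39 deeper cells Tbr1 ranked 1 for Neurod2 (0.72) and 6 for Neurod6 (0.60).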

How the data were processed

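Expression was measured in 59 single cells of 1 group. The authors deposited FPKM for 20740 features, 51 of them ERCC spike-ins that were left out here. Per the submitters' processing notes, STAR 2.5.3a and featureCounts 1.5.3 were used with GRCm38. Which annotation release, strand setting and multi-mapping rule applied is not given in the sources used here. Overlapping or antisense genes therefore cannot be told apart by their reads.

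A gene was detected at an FPKM of 1 or more, and log2 values used a pseudocount of 1. Fragments per cell were recovered from the spacing of FPKM times the exon length of GENCODE M21 (19366 genes), where a median of 73.3% of values up to 20 fragments were whole within 0.02. Since the remainder were not, no count model was used. For Slc17a7, Slc17a6 and Sv2b the spacing was 1.83, 1.25 and 1.47 times that of 1 fragment at the GENCODE length, and fragments were counted in that spacing (tolerance 0.06). Only 57.1% of the Neurod6 values came out whole, so its fragments are approximate. In 31 cells, 1 fragment in a gene of 1 kb gives an FPKM of at least 1.

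The members and gene lists were chosen with earlier results of these data known. Genes named are the 8 members, Gad1, Gad2 and Slc32a1, from each list the 2 genes detected in the most and the 2 in the fewest cells, and for members detected in at least 10 cells the 3 genes with the highest Spearman correlation. Some genes selected this way are left out of the text. With 1 group there was no comparison to test. Alternatives were other detection thresholds, pseudocounts, scalings, filters and subsets of cells. No 2 cells had identical values. The recovery of depth and of similar genes was tested on simulated data in which every gene had the exon length used to recover it. The recovery of fragment spacing was tested only on exact multiples of a known spacing. Depth recovery with exon lengths that do not match, as for Slc17a7, Slc17a6 and Sv2b, was therefore not covered. The joint counts and the levels beside the Gad genes were not tested in this way. Python 3.11.15, numpy 2.4.6, pandas 2.3.3 and scipy 1.17.1 were used.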

Additional observations from a re-analysis of the deposited data

How the results depend on the processing

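No paired analysis was possible because there is 1 group. The alternatives gave 136 values for 20 results, of which 121 were counted as the same and 15 as moved. Shares of cells counted as the same lay within the interval of the main value, and those counted as moved lay outside it. These intervals are wide: a transporter share of 58.8% in cells with a factor gene was counted as the same as 74.1%. The median difference from the Gad genes, the order of pairs and the similar genes had no interval. The count of 121 therefore does not measure how stable the results are. Only the median difference from the Gad genes could change sign, and it stayed below 0. The other results are shares and counts, which cannot. Leaving out the 3 cells with fewer than 1000 genes or the highest cell of each gene, levels at the GENCODE exon length, and the filter of 12 cells within the deeper cells were chosen after the data had been seen. With detection at 5 FPKM, a transporter gene was found in 27.1% of cells, a factor gene in 28.8% and both in 16.9%. Slc17a7 was then found in 22.0% of cells, Tbr1 and Sv2b in 16.9% each and Slc30a3 in 10.2%. At 10 recovered fragments a factor gene was found in 28.8% and both kinds in 20.3% of cells, and with any FPKM above 0 a vesicle gene in 54.2% and Sv2b in 47.5%. At 10 fragments Slc30a3 was found in 11.9%. A higher FPKM threshold can only lower such shares and a lower one can only raise them. The part of depth in the size of these moves was not tested. The transporter share ran from 58.8 to 88.2% in cells with a factor gene and from 14.3 to 32.3% in cells without one. The median difference from the Gad genes ran from -4.44 to -1.57 and the share of cells with the transporters higher from 7.69 to 13.6%. Of 28 pairs of members, 22 to 27 kept their order by mean, and an order by median could not be made because all 8 medians were 0. Of the 21 named similar genes, 6 were shared in the cells with at least 500000 fragments, 3 with the filter applied within those cells, 3 with a Pearson correlation of log2 values and 16 without a filter on low genes; the cause was not tested.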
